A study of Arabidopsis thaliana with 9 samples.

Results

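GH3.2, GH3.3, GH3.5, GH3.6, GH3.17 and DAO1 encode enzymes that take auxin out of its active pool. They were chosen by locus identifier, as AT4G37390, AT2G23170, AT4G27260, AT5G54510, AT1G28130 and AT1G14130, and make up 6 of the 32833 genes listed. The rule names loci and sets no threshold on a level, although the genes were proposed with results of these data in view. All 6 were found in the table and held enough reads to be tested. RNA was sequenced from leaves of Arabidopsis thaliana plants of 9 weeks of the natural accession Shahdara, with 3 libraries, labelled as biological replicates, in each of 3 groups. These were the Shahdara wild type without a treatment, a Shahdara line labelled IAA26 knockout and a Shahdara line labelled IAA26 stable, called stabilised here after the series' design text. According to that text the lines were screened for effects on development and defence against the wild type. How the stabilised line was made, where the knockout-labelled line is mutated and how many plants went into a library are details not given in the sources used here, and p-values therefore measure only the spread between these libraries.

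Auxin, chiefly indole acetic acid (IAA), is inactivated in plant cells by conjugation and by oxidation. GH3 enzymes of the auxin-acting branch of the family join IAA to amino acids, mainly aspartate and glutamate, and DAO1 is the dioxygenase that oxidises IAA or its conjugates. GH3.2, GH3.3, GH3.5 and GH3.6 are classical early auxin-response genes, so that auxin raises the transcripts of the enzymes that remove it. Aux/IAA proteins such as IAA26 repress auxin response factors, which bind TGTC-type elements upstream of target genes, until auxin leads to their degradation.

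The 4 early auxin-response members differ in the 300 bases upstream of their annotated starts, which are shown because the auxin response element TGTCTC lies in the windows of GH3.2, GH3.3 and GH3.5 and not in that of GH3.6. The sequences are from the RefSeq TAIR10.1 genome and run from 5′ to 3′ on the strand of the gene, with capitals marking TGTCTC. The window of GH3.2 is chr4:17579318-17579617 on the plus strand, that of GH3.3 is chr2:9866563-9866862 on the minus strand, that of GH3.5 is chr4:13653279-13653578 on the plus strand, and that of GH3.6 is chr5:22133689-22133988 on the minus strand.
GH3.2: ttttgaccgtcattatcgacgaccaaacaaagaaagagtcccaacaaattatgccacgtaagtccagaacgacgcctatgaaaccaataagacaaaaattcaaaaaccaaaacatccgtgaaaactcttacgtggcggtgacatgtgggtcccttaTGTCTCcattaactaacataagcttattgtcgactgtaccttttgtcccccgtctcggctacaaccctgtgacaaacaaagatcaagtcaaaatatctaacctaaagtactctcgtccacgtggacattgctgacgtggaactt
GH3.3: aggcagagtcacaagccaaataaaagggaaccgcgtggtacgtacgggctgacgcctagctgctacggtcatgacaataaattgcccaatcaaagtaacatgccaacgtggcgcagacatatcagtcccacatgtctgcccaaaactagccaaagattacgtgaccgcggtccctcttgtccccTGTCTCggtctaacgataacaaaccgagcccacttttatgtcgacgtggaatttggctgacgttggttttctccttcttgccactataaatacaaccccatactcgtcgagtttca
GH3.5: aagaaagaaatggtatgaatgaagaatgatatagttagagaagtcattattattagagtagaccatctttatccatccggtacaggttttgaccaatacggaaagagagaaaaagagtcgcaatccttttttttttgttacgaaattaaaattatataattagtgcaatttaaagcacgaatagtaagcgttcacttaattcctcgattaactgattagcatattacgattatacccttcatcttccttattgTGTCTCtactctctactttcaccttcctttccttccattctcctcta
GH3.6: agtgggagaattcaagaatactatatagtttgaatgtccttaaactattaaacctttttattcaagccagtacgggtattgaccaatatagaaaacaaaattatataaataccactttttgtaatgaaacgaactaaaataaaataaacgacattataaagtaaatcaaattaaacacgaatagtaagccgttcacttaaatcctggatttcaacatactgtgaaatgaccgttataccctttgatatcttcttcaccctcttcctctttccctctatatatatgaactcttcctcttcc
TGTCTC stood at -144 to -139 from the start in GH3.2, at -116 to -111 in GH3.3 and at -47 to -42 in GH3.5. It was searched on both strands, as were the auxin response element TGTCGG, the G-box CACGTG and the evening element AAAATATCT. Of 27443 windows of the same length, 13.0% held TGTCTC, against 3 of the 6 genes, and GH3.17 and DAO1 held none. The window of DAO1 overlaps another annotated gene, AT1G14140. TGTCGG was in none of the 6 windows and in 4.91% of all. GH3.2 alone of the 6 held a G-box, at -27 to -22, and an evening element, at -55 to -47, which 7.09% and 2.79% of all windows held. No motif overlapped another. A match is a string of letters in a window and not a measured binding site. Other TGTC-type elements were not searched for and are not marked. A window without TGTCTC or TGTCGG can still hold TGTC, as that of GH3.6 does.

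Positions below are on TAIR10, the build in the submitters' processing notes, counted from 1. GH3.2, listed under its name YDK1, lies at chr4:17579618-17582022 on the plus strand, and GH3.5 lies on the same chromosome and strand at chr4:13653579-13656285. GH3.3 is at chr2:9863855-9866562 and GH3.6 at chr5:22130964-22133688, both on the minus strand. On chromosome 1, GH3.17 is at chr1:9825169-9828118 on the plus strand and DAO1 at chr1:4835724-4837771 on the minus strand. The reference annotation gives GH3.17 a pair of transcripts, of 4 and 2 exons, and each of the others 1 transcript of 3 exons. No other annotated gene overlaps any of them. GH3.5 and GH3.6 are the closest pair by coding sequence, with 84.1% of alignment positions, gaps included, identical, followed by GH3.2 and GH3.3 with 79.8%. All other pairs among the GH3 members shared 59.4% to 64.6%. All exon reads of the 6 genes were unique in the deposited counts, so no read was shared between these copies.

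Exon reads per library numbered 28585976 to 45346301. Levels are given in RPKM, reads scaled to exon length and to library size as the authors deposited them, in the order of libraries 1, 2 and 3 of a group. Log2 fold changes, each with a standard error (SE), come from edgeR's quasi-likelihood test on exon reads of all 9 libraries, with p-values adjusted by Benjamini and Hochberg over 19409 genes; a gene is called where the adjusted p is under 0.05. IAA26 itself stood at 17.5 to 20.3 RPKM in wild-type libraries, 12.4 to 17.2 RPKM in the knockout-labelled line and 9.81 to 12.7 RPKM in the stabilised line, so the transcript level did not set the knockout-labelled line apart by an absence. The summed level of 4 leaf markers (RBCS1A, LHCB1.1, RCA and GAPB) was 11196 to 12144 RPKM in the wild type, 8730 to 10095 RPKM in the knockout-labelled line and 6996 to 11057 RPKM in the stabilised line. Summed levels of 4 flower markers (AP3, PI, SEP3 and AG) were 3.43 to 5.36, 5.33 to 23.4 and 3.73 to 8.75 RPKM in the same order, with the highest in knockout-labelled 3. Those of 4 phloem markers (SUC2, APL, SWEET11 and SWEET12) were 357 to 374, 271 to 300 and 202 to 262 RPKM. For 4 xylem markers (XCP1, XCP2, IRX3 and VND7) they were 3.29 to 7.62, 1.72 to 7.25 and 2.64 to 13.7 RPKM. The members of a sum did not all move alike. SWEET11 had means of 201, 127 and 89.5 RPKM in the same order, while SUC2 and SWEET12 of either line overlapped the wild type. APL was at 12.5 to 13.5, 14.5 to 16.6 and 9.73 to 14.2 RPKM. RCA was below every wild-type library in the stabilised line. RBCS1A and LHCB1.1 were above them all in stabilised 2 and 3 and below them all in stabilised 1. The part of these markers in the results below was not tested. In whole leaves, fewer cells that express a gene and less RNA per cell cannot be told apart.

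GH3.5 was the 1 gene of the 6 that passed the test, and it was higher in the stabilised line. Its enzyme conjugates auxin and is also known to act on salicylic acid, a defence hormone. GH3.5 stood at 7.19, 11.3 and 9.04 RPKM in the wild type (9.17 ± 2.05, SD, n = 3), at 13.6, 17.8 and 12.2 RPKM in the knockout-labelled line (14.5 ± 2.89, n = 3), and at 15.01, 13.2 and 13.6 RPKM in the stabilised line (13.9 ± 0.963, n = 3). Every library of either line was above every wild-type library, and the lines overlapped each other. These levels rest on 624 to 1620 exon reads per library.

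The stabilised line held GH3.5 at 1.61-fold the wild-type level (log2 fold change 0.68, SE 0.17, edgeR's Benjamini-Hochberg adjusted p = 0.0407). It was the only call among the 6 genes in that comparison, in which 8.87% of all genes tested were called and 5.09% were called higher. In the knockout-labelled line GH3.5 was 1.46-fold the wild-type level (0.55, SE 0.16, edgeR's adjusted p = 0.129) and was not called. There 0 of the 6 genes and 1.66% of all genes were called (0.927% higher and 0.732% lower). An unadjusted p under 0.05 was found for 1 of the 6, against 3809 of all 19409 genes. DESeq2 called 1 of the 6 (GH3.5, adjusted p = 0.0427), against 1778 genes in all, and limma-voom called 0 of the 6. Groups that did not overlap after TMM scaling, GH3.5 higher in each line, were seen for 1 of 6 genes in both comparisons, against 29.3% of all genes for the knockout-labelled line (15.1% higher) and 28.3% for the stabilised line (14.1% higher). Both comparisons share the wild-type libraries. The direct comparison of the stabilised with the knockout-labelled line gave 0.14 (SE 0.16, edgeR's adjusted p = 0.588). Here 0 of the 6 genes were called, against 6.96% of all genes (4.87% higher, 2.09% lower). An unadjusted p under 0.05 was found for 0 of the 6, against 5935 of all 19409 genes. DESeq2 called 0 of the 6, against 3641 genes in all, and limma-voom called 0 of the 6. The call in the stabilised line was lost without wild type 1 (0.54, edgeR's adjusted p = 0.103), without wild type 3 (0.67, 0.116), without stabilised 2 (0.67, 0.120) and without stabilised 3 (0.69, 0.0944), while the fold change stayed between 0.54 and 0.86 with each library left out in turn. Over all 14 alternative fits, which include these, the call was kept in 8.

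**Figure D1:**
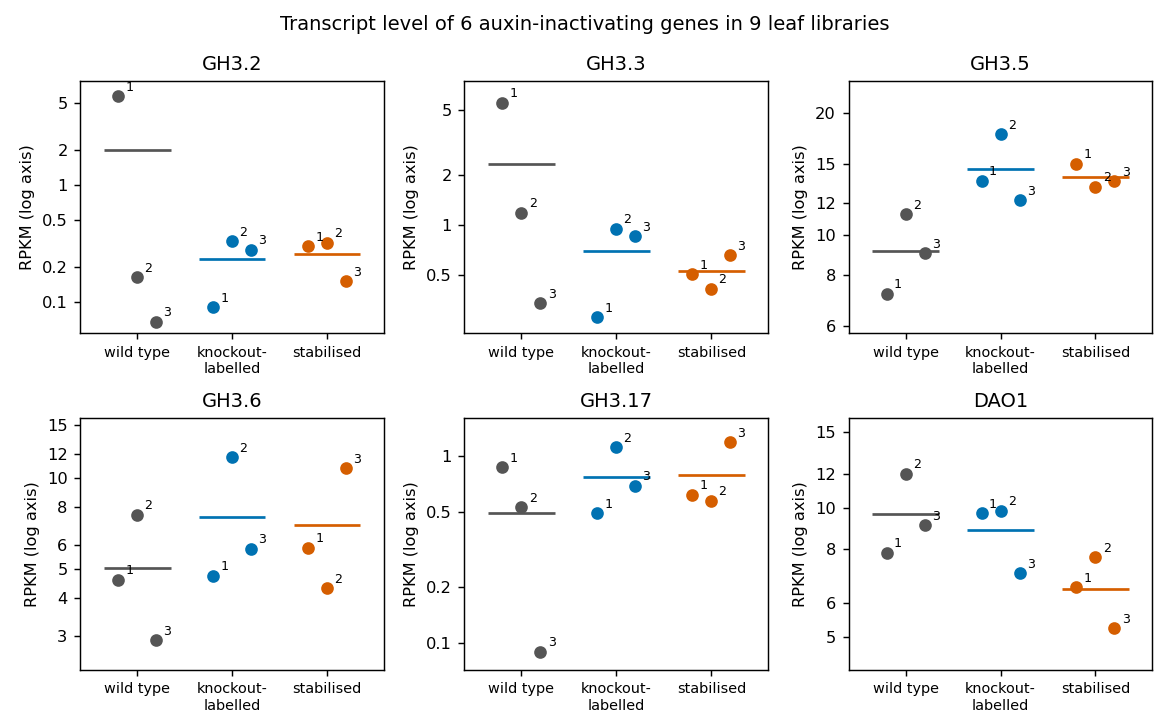
RPKM on a log axis for each of the 6 genes in each library (points, with the library number) and the mean of each group (lines). GH3.5 shows all 6 libraries of the lines above the wild type, and GH3.2 and GH3.3 show wild type 1 at 5.72 and 5.501 RPKM far above the other 8 libraries.

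GH3.6 (also known as DFL1), the closest relative of GH3.5, encodes another conjugating enzyme whose overexpression is known to shorten shoots. It stood at 4.61, 7.56 and 2.90 RPKM in the wild type (5.02 ± 2.36, n = 3), at 4.75, 11.7 and 5.83 RPKM in the knockout-labelled line (7.44 ± 3.76, n = 3) and at 5.88, 4.32 and 10.8 RPKM in the stabilised line (6.998 ± 3.38, n = 3). The groups overlapped, with knockout-labelled 2 and stabilised 3 high and wild type 3 lowest. Its fold changes were 0.44 (SE 0.47, edgeR's adjusted p = 0.651) in the knockout-labelled line and 0.56 (SE 0.47, 0.481) in the stabilised line. Between the lines the fold change was 0.12 (SE 0.47, 0.875). The spread within each group was thus wider for GH3.6 than for GH3.5.

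GH3.2 and GH3.3 were high in a single wild-type library. GH3.2 is also named YDK1 after a dwarf line that overexpresses it, and both enzymes conjugate IAA. GH3.2 stood at 5.72, 0.163 and 0.0684 RPKM in the wild type, from 457, 17 and 6 reads. Its knockout-labelled levels were 0.0911, 0.333 and 0.280 RPKM, from 7, 28 and 23 reads, and its stabilised levels 0.301, 0.323 and 0.152 RPKM, from 20, 24 and 13 reads. Wild type 1 was thus 17.1 times the next highest library, while the other 8 libraries lay between 0.0684 and 0.333 RPKM and wild type 3 was the lowest of all. GH3.3 stood at 5.501, 1.19 and 0.339 RPKM in the wild type, from 429, 121 and 29 reads. It was at 0.280, 0.952 and 0.861 RPKM in the knockout-labelled line and at 0.509, 0.414 and 0.658 RPKM in the stabilised line. Here too wild type 1 stood alone, 4.62 times the next library, and the remaining wild-type libraries overlapped both lines.

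The wild-type means of GH3.2 (1.98 ± 3.24, SD, n = 3) and GH3.3 (2.34 ± 2.77, n = 3) therefore had SDs above themselves. The fitted fold changes of GH3.2 were -3.18 (SE 1.44, edgeR's adjusted p = 0.271) in the knockout-labelled and -2.86 (SE 1.43, 0.237) in the stabilised line, and neither was called. Without wild type 1 they changed sign, to 0.89 (edgeR's adjusted p = 0.553) and 1.22 (0.346). For GH3.3 they were -1.86 (SE 0.89, edgeR's adjusted p = 0.295) and -2.07 (SE 0.90, 0.185), and without wild type 1 they shrank to -0.24 and -0.45. Between the lines, GH3.2 gave 0.32 (SE 1.45, edgeR's adjusted p = 0.896) and GH3.3 gave -0.21 (SE 0.90, 0.89). Only 4 of the 19409 genes tested stood as far above all other libraries in wild type 1 as GH3.2 did, GH3.2 included, and 31 stood as far as GH3.3. At 4-fold or more above every other library, 39 genes were found in wild type 1, 72 in knockout-labelled 3, 18 in stabilised 2 and at most 7 in any other library.

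**Figure D2:**
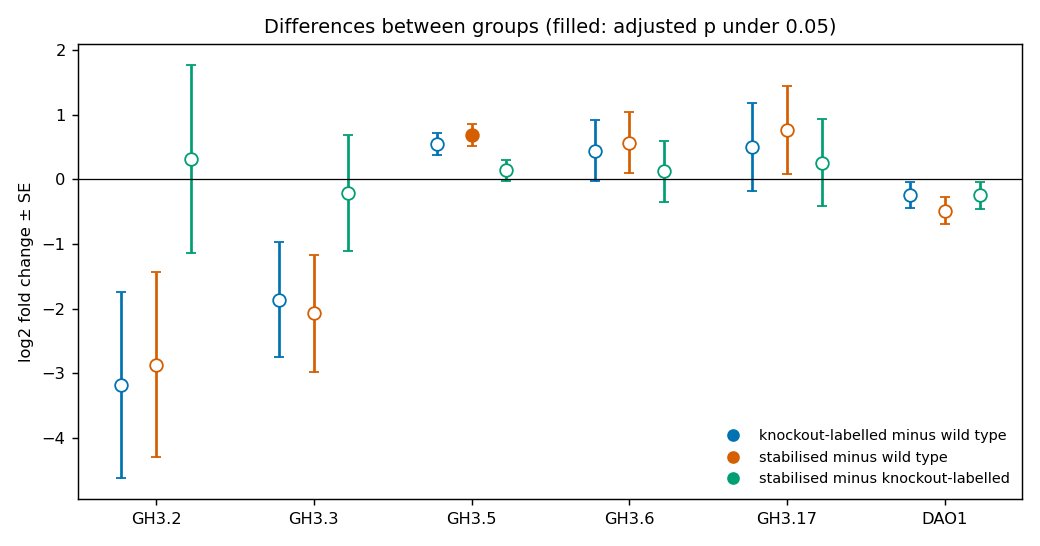
Log2 fold change with its SE for the 6 genes (x axis) in the 3 comparisons (colours); a filled point marks an adjusted p under 0.05 by edgeR. GH3.5 in the stabilised line against the wild type, at 0.68, is the 1 filled point, and the bars of GH3.2 are the widest.

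**Figure D3:**
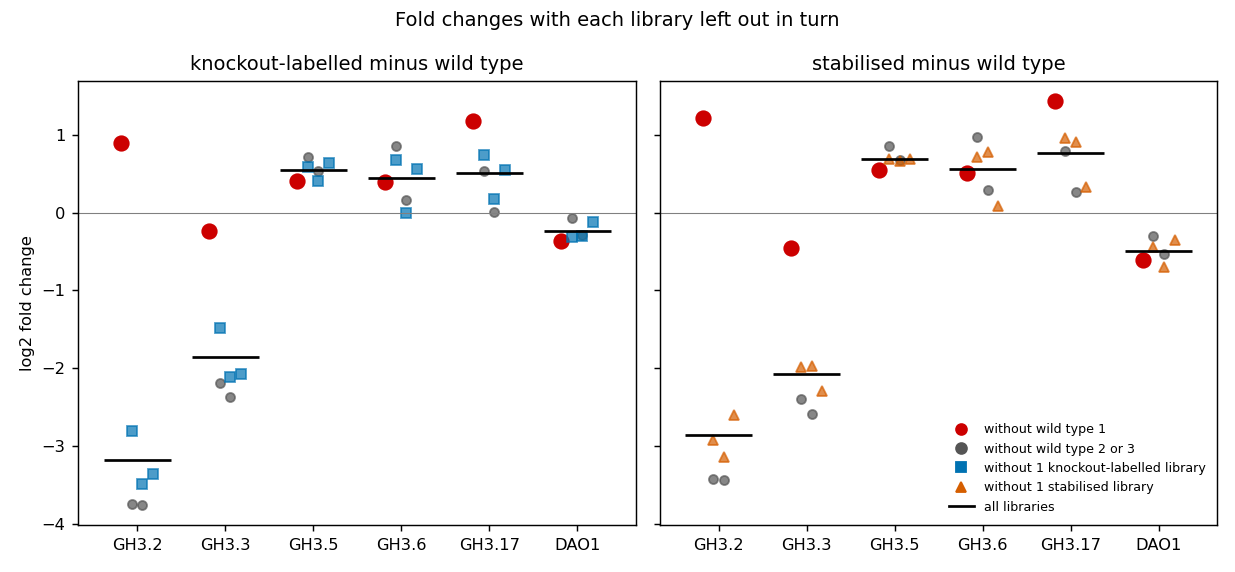
Log2 fold change of each gene with each library left out in turn (points, the red point without wild type 1) and with all libraries (black lines), for both lines against the wild type. The red point of GH3.2 moves across 0 to 0.89 and 1.22, and that of GH3.3 to -0.24 and -0.45, while all points of GH3.5 lie above 0.

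GH3.17 encodes an enzyme that favours glutamate as the partner of IAA. It stood at 0.873, 0.533 and 0.0904 RPKM in the wild type (0.499 ± 0.393, n = 3), at 0.495, 1.11 and 0.695 RPKM in the knockout-labelled line (0.768 ± 0.316, n = 3) and at 0.620, 0.577 and 1.18 RPKM in the stabilised line (0.794 ± 0.339, n = 3). Wild type 3, with 10 reads, was the lowest library, and the groups overlapped. Its fold changes were 0.50 (SE 0.68, edgeR's adjusted p = 0.728), 0.76 (SE 0.68, 0.508) and, between the lines, 0.26 (SE 0.67, 0.811).

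DAO1 had its lowest mean in the stabilised line but was not called in any comparison. It stood at 7.86, 12.02 and 9.11 RPKM in the wild type (9.66 ± 2.13, n = 3), at 9.70, 9.84 and 7.03 RPKM in the knockout-labelled line (8.86 ± 1.58, n = 3) and at 6.53, 7.67 and 5.23 RPKM in the stabilised line (6.48 ± 1.22, n = 3). In RPKM all stabilised libraries were below all wild-type libraries, by a gap from 7.67 to 7.86, and after TMM scaling the groups overlapped. The fold change in the stabilised line was -0.49 (SE 0.21, unadjusted p = 0.0462 and adjusted p = 0.177 by edgeR). Knockout-labelled libraries gave -0.24 (SE 0.21, edgeR's adjusted p = 0.567), and between the lines -0.25 (SE 0.21, 0.441). Against the wild type in the stabilised line 3 of the 6 genes had an unadjusted p under 0.05, namely GH3.5, GH3.3 and DAO1. The same was true of 5253 of all 19409 genes. Both DESeq2 and limma-voom called 1 of the 6 there, where DESeq2 called 3418 genes in all.

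By group mean the order of levels in the wild type was DAO1, GH3.5, GH3.6, GH3.3, GH3.2 and GH3.17, with overlapping ranges between all neighbours, although DAO1 was above GH3.5 in 3 of 3 libraries. The knockout-labelled order was GH3.5, DAO1, GH3.6, GH3.17, GH3.3 and GH3.2. There GH3.5 cleared DAO1 and GH3.6 cleared GH3.17 without overlap, and the other neighbours overlapped. In the stabilised line the order was GH3.5, GH3.6, DAO1, GH3.17, GH3.3 and GH3.2. GH3.5 and GH3.6, DAO1 and GH3.17, and GH3.3 and GH3.2 were apart there without overlap, while GH3.6 and DAO1, and GH3.17 and GH3.3, overlapped. GH3.5 was thus above DAO1 in every library of both lines and below it in every wild-type library. The wild-type gaps were small, at 7.19 against 7.86, 11.3 against 12.02 and 9.04 against 9.11 RPKM. This order depends on the scaling to exon length, 2357 bases for GH3.5 and 1555 for DAO1. In exon reads GH3.5 exceeded DAO1 in every wild-type library, with 624 against 450, 1274 against 896 and 861 against 573.

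The summed level of the 5 conjugating genes was 23.9, 20.7 and 12.4 RPKM in the wild type, 19.3, 31.9 and 19.9 RPKM in the knockout-labelled line and 22.3, 18.8 and 26.4 RPKM in the stabilised line. The groups overlapped in this sum. In wild type 1 GH3.2 supplied 23.9% and GH3.3 23.0% of it, against at most 1.72% and 5.75% in any other library. GH3.5 supplied 30.1% of the sum in wild type 1 and 51.5% to 72.7% in the other 8 libraries. The ratio of the sum to DAO1 was 2.04 ± 0.882 in wild-type libraries, 2.68 ± 0.639 in the knockout-labelled line and 3.64 ± 1.31 in the stabilised line (SD, n = 3 each), with overlapping ranges.

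Intron reads, a rough measure of unspliced transcript, were few. Of the gene reads of GH3.5, 0.781% ± 0.0829 lay in introns in wild-type libraries, 1.40% ± 0.205 in the knockout-labelled line and 1.14% ± 0.746 in the stabilised line (SD, n = 3 each). The wild-type and knockout-labelled libraries did not overlap in this share, which gives the smallest p possible with 3 against 3 (exact two-sided permutation test, p = 0.1, adjusted p = 0.9 over 18 such tests). DAO1 had the highest mean share of the 6 genes, at 3.66% ± 0.961 in wild-type libraries, 4.59% ± 0.0655 in the knockout-labelled line and 4.62% ± 1.27 in the stabilised line. Its wild-type libraries (2.55% to 4.26%) and knockout-labelled libraries (4.52% to 4.64%) did not overlap either. The same exact permutation test gave p = 0.1 and adjusted p = 0.9. Over all genes the share was 3.79% to 4.03% in the 3 libraries numbered 2 and 4.61% to 4.99% in the other 6.

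Across the 9 libraries the 6 genes did not vary as 1 unit. Of 15 pairs, none passed Benjamini-Hochberg adjustment over the pairs. GH3.2 and GH3.3 gave Pearson's r of 0.883 on log2 CPM (exact permutation p = 0.0119, adjusted 0.0893, n = 9) and Spearman's rho of 0.517 (exact permutation p = 0.162, adjusted 0.405). Without wild type 1 and wild type 3, the libraries farthest from the median of GH3.2, r was 0.325, and without wild type 1 alone it was 0.493. Leaving out the most extreme libraries narrows the range of GH3.2 and tends to lower r. The fall in r therefore cannot show what the relation rests on. GH3.6 and GH3.17 gave r of 0.786 (exact permutation p = 0.00618, adjusted 0.0893, n = 9) and rho of 0.683 (exact permutation p = 0.0503, adjusted 0.380). Without wild type 3 and stabilised 3, r was 0.452. The close relatives GH3.5 and GH3.6 gave r of 0.590 (exact permutation p = 0.0935, adjusted 0.430, n = 9) and rho of 0.517 (exact permutation p = 0.162, adjusted 0.405), and r of 0.350 without wild type 1 and wild type 3.

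In a search of 16788 tested genes whose mean reached 1 RPKM, those most like each member over the 9 libraries were found by Pearson's r on log2 CPM, a description in which all points share libraries and depth. For GH3.2 they were CSLG1 (0.943), KTI1 (0.908) and ATG8H (0.899), which were all highest in wild type 1, with KTI1 at 85.5 RPKM there and as low as 0.262 RPKM elsewhere. For GH3.3 they were PCNA2 (0.968), ATG8H (0.923) and AT2G30780 (0.919), so ATG8H stood in both sets. The genes closest to GH3.5 were AT1G61260 (0.978), LRK10L-1.5 (0.964) and GOLS3 (0.963), which were all lowest in wild type 1 and highest in knockout-labelled 2, as GH3.5 was. For GH3.6 they were AT2G42310 (0.931), OBP3 (0.910) and LSH1 (0.882), and for GH3.17 MAKR2 (0.933), AT3G24670 (0.928) and EXLB1 (0.923). DAO1 was most like RABA1A (0.946), AT5G61100 (0.945) and PBS1 (0.944).

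Of the 14 other genes of the GH3 family, 7 had enough reads to be tested. The most abundant family members in these leaves were outside the auxin-acting set: GH3.10 at 34.2 to 58.9 RPKM and JAR1, which conjugates jasmonate to isoleucine, at 21.8 to 40.6 RPKM. In the stabilised line 0 of the 7 rose and 2 fell against the wild type, where 3.78% of all genes were called lower. GH3.15, whose enzyme is known to act on the auxin precursor indole butyric acid, went from 4.58 ± 0.629 RPKM in the wild type to 1.08 ± 0.179 RPKM (SD, n = 3 each; log2 fold change -1.998, SE 0.32, edgeR's adjusted p = 0.0095), and was called with each library left out in turn. GH3.14 went from 7.64 ± 1.74 to 4.47 ± 0.704 RPKM (-0.70, SE 0.17, edgeR's adjusted p = 0.0423) and kept its call in 2 of the 6 fits that leave out a library. It was not called by limma-voom (adjusted p = 0.0652).

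GH3.15 in the knockout-labelled line was at 1.80 ± 0.743 RPKM (-1.45, SE 0.31, edgeR's adjusted p = 0.0602). There 0 of the 7 other GH3 genes were called, against 1.66% of all genes. An unadjusted p under 0.05 was found for 3 of the 7, against 3809 of all 19409 genes. DESeq2 called 1 of the 7, against 1778 genes in all, and limma-voom called 1 of the 7. Between the lines edgeR called 0 of the 7 (6.96% of all genes), DESeq2 1 (3641 genes in all) and limma-voom 0. An unadjusted p under 0.05 was found for 2 of the 7, against 5935 of all 19409 genes. GH3.8 had the smallest p (1.13 ± 0.428 RPKM in the knockout-labelled and 0.499 ± 0.145 RPKM in the stabilised line, -0.99, edgeR's adjusted p = 0.072). The median fold change in the stabilised against the wild type was -0.33 over the 7 other GH3 genes, 0.037 over the 6 genes described first and 0.0092 over all genes. GH3.1, GH3.7, GH3.13, GH3.18 and GH3.19 had 1 to 47 reads in all 9 libraries together, and GH3.4 and GH3.16 had none.

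**Figure D4:**
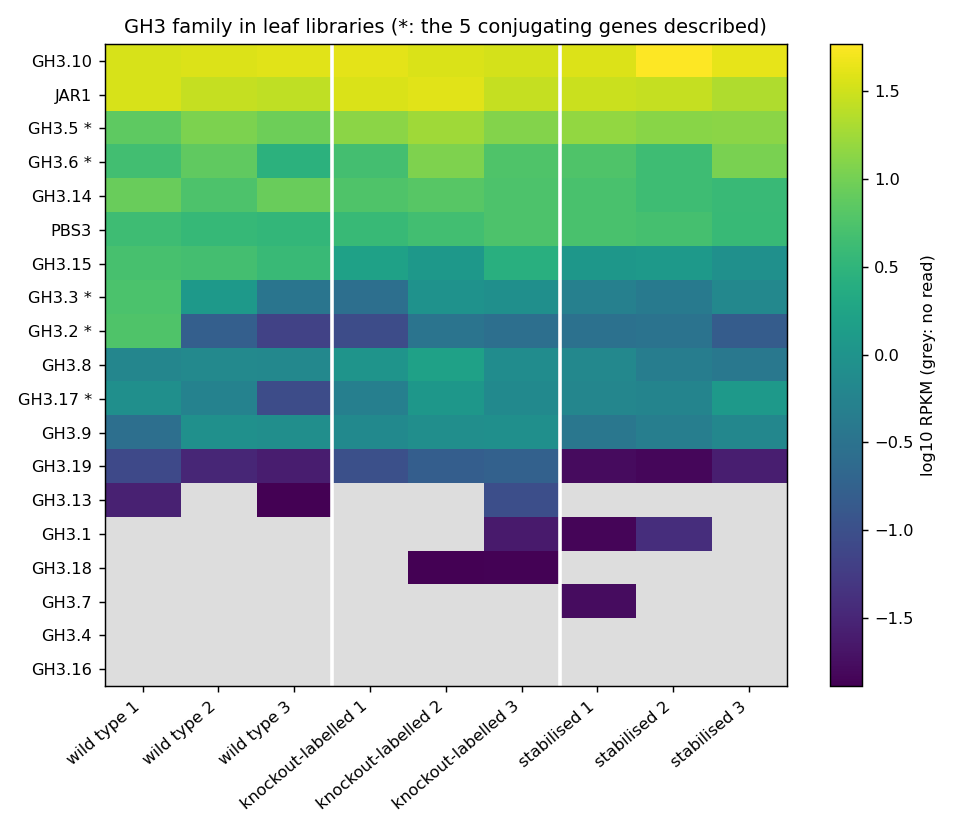
Colour gives log10 RPKM of the GH3 family genes (rows, ordered by mean) in the 9 libraries (columns), with grey for libraries without a read and white lines between groups; asterisks mark the 5 conjugating genes described here. GH3.10 and JAR1 are brightest in all libraries, and GH3.2 and GH3.3 are bright in wild type 1 alone.

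Of 15 other genes that inactivate auxin or release it from conjugates, 13 were tested, and against the wild type 1 fell in the knockout-labelled line and 2 fell in the stabilised line. The shares of all genes called lower were 0.732% and 3.78% in these comparisons. UGT74E2, a glucosyltransferase of indole butyric acid, fell from 11.6 ± 0.836 RPKM in the wild type to 3.65 ± 0.961 RPKM in the knockout-labelled line (-1.77, SE 0.30, edgeR's adjusted p = 0.0349) and to 1.60 ± 0.661 RPKM in the stabilised line (-2.77, SE 0.32, 0.00293). It was the 1 called gene of the 13 in the knockout-labelled line and kept that call in 1 of 6 fits that leave out a library, against 6 of 6 in the stabilised line. UGT74D1, which glucosylates IAA and its oxidised form, fell in the stabilised line from 40.4 ± 9.41 to 13.1 ± 3.99 RPKM (-1.57, SE 0.21, edgeR's adjusted p = 0.00532). Only 15.02% of its reads were unique, and a fit on unique reads gave -1.65 (0.0033). Against the knockout-labelled line UGT74D1 was lower (-1.05, SE 0.21, edgeR's adjusted p = 0.0315) and ILL6, an amidohydrolase of hormone conjugates, was higher (8.63 ± 0.665 against 47.5 ± 37.6 RPKM, 2.69, SE 0.56, 0.0351), and these 2 of 13 were the calls there. ILL6 and UGT74D1 each kept that call in 2 of 6 fits that leave out a library. Between the lines 4.87% of all genes were called higher and 2.09% lower.

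Genes of auxin synthesis moved in both directions in the stabilised line, with 2 of 12 tested (20 listed) higher and 1 lower than in the wild type. In that comparison 5.09% of all genes were called higher and 3.78% lower. AMI1, which releases IAA from its acetamide, rose from 17.9 ± 4.46 to 50.1 ± 15.4 RPKM (1.59, SE 0.32, edgeR's adjusted p = 0.0234). YUC9, a flavin monooxygenase of the main synthesis route, rose from 0.171 ± 0.123 to 2.43 ± 1.56 RPKM (3.92, SE 0.89, 0.033 by edgeR), and YUC6 of the same family fell from 3.57 ± 0.226 to 2.02 ± 0.555 RPKM (-0.76, SE 0.16, 0.0243 by edgeR). AMI1, YUC9 and YUC6 kept these calls in 2, 1 and 3 of 6 fits that leave out a library, and limma-voom did not call YUC9 (adjusted p = 0.0507). Against the knockout-labelled line YUC9 was higher (3.89, edgeR's adjusted p = 0.041) while YUC6 (-1.17, 0.0134) and the aminotransferase gene TAA1 (-0.97, 0.0402) were lower. These calls of YUC9, YUC6 and TAA1 held in 2, 4 and 2 of 6 fits that leave out a library, and limma-voom did not call YUC9 (adjusted p = 0.0571). The shares of all genes called between the lines were 4.87% higher and 2.09% lower. In the knockout-labelled line against the wild type edgeR called 0 of the 12 (1.66% of all genes), DESeq2 1 (1778 genes in all) and limma-voom 0. An unadjusted p under 0.05 was found for 4 of the 12, against 3809 of all 19409 genes. The nitrilase gene NIT1 had the smallest p (-0.85, edgeR's adjusted p = 0.123).

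Of 11 auxin response factors and receptors, all tested, 2 fell in the stabilised line against the wild type, where 3.78% of all genes were called lower. The receptor gene AFB3 fell from 34.98 ± 0.918 to 21.7 ± 3.303 RPKM (-0.62, SE 0.09, edgeR's adjusted p = 0.00616), with 72.2% of its reads unique, and ARF8, an activating response factor, fell from 20.1 ± 2.52 to 13.0 ± 2.505 RPKM (-0.57, SE 0.12, 0.0305 by edgeR). AFB3 kept its call in 6 and ARF8 in 2 of 6 fits that leave out a library. Both were also lower than in the knockout-labelled line, at -0.37 (edgeR's adjusted p = 0.0434) and -0.60 (0.0338), and there each kept its call in 1 of 6 such fits. Between the lines 2.09% of all genes were called lower. None of the 11 was called by edgeR, DESeq2 or limma-voom in the knockout-labelled line against the wild type, where edgeR called 1.66% of all genes. There 3 of the 11 had an unadjusted p under 0.05, against 3809 of all 19409 genes, and AFB3 gave -0.25 (edgeR's adjusted p = 0.17).

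None of 8 other early auxin-induced genes was highest of the 9 libraries in wild type 1, where GH3.2 and GH3.3 were. IAA5 and IAA1 were highest of the wild-type libraries there, IAA5 at 0.730 against 0.320 and 0.190 RPKM and IAA1 at 18.6 against 17.3 and 15.95 RPKM. IAA2 and IAA19, Aux/IAA genes that auxin induces, were both lowest of the 9 libraries there, at 52.1 and 3.04 RPKM. IAA2, IAA3, IAA5 and IAA29 were highest in stabilised 2, where GH3.2 and GH3.3 stood at 0.323 and 0.414 RPKM. In log2 CPM these lay at 0.41 and -0.58 from the median of the 9 libraries, so GH3.2 was above its median there. Of 8 tested genes (11 listed), IAA3 (31.3 ± 1.37 to 61.9 ± 19.1 RPKM; 1.09, SE 0.26, edgeR's adjusted p = 0.039; 84.5% of reads unique) and IAA29 (1.41 ± 0.866 to 11.9 ± 6.26 RPKM; 3.191, SE 0.78, 0.0414) rose in the stabilised line against the wild type, and 0 fell. Each kept its call in 1 of 6 fits that leave out a library, and limma-voom called neither. In the same comparison edgeR called 5.09% of all genes higher and 3.78% lower. Against the knockout-labelled line IAA3 was higher (1.33, edgeR's adjusted p = 0.0303) and IAA13 lower (-0.57, 0.0453), calls that held in 2 and 1 of 6 fits that leave out a library. Between the lines 4.87% of all genes were called higher and 2.09% lower. Against the wild type none of the 8 was called by edgeR, DESeq2 or limma-voom in the knockout-labelled line, 1 had an unadjusted p under 0.05, and IAA13 had the smallest p (0.36, edgeR's adjusted p = 0.195). Of all 19409 genes, edgeR called 1.66% there and 3809 had an unadjusted p under 0.05.

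**Figure D5:**
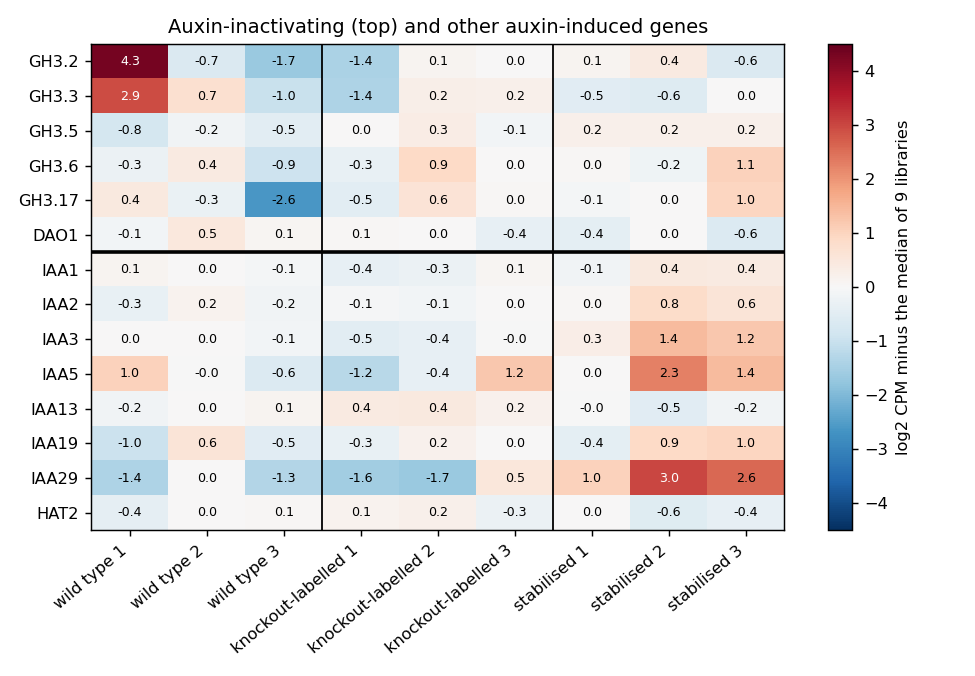
Log2 CPM of each gene in each library minus the median of the 9 libraries (colour and printed values), with the 6 auxin-inactivating genes above the thick line and 8 other auxin-induced genes below it. GH3.2 and GH3.3 are high in wild type 1, while IAA29 and IAA3 are high in stabilised 2 and 3.

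Of the 16 tissue markers, SWEET11 and RCA were called in the stabilised line against the wild type and VND7 between the lines. The shares of all genes called in these comparisons were 8.87% and 6.96%. With each library left out in turn SWEET11 kept its call in 6 of 6 fits and RCA and VND7 in 1 of 6 each, and limma-voom did not call VND7 (adjusted p = 0.0539). In the stabilised line against the wild type the phloem sucrose exporter SWEET11 was lower (-1.09, edgeR's adjusted p = 0.00695), as was the leaf gene RCA (-0.69, 0.0498), and no flower or xylem marker was called, SEP3 (0.85, 0.416) and VND7 (1.102, 0.272) having the smallest p. Of the 4 leaf markers 2 had fold changes above 0 there (median -0.0077), and of the 4 phloem markers 0 did (median -0.16). In the knockout-labelled line 0 of the 16 markers were called by edgeR or limma-voom and 4 by DESeq2, which called 1778 genes in all. An unadjusted p under 0.05 was found for 6 of the 16, against 3809 of all 19409 genes. The smallest p of each list gave SWEET11 -0.77 (edgeR's adjusted p = 0.0543), GAPB -0.52 (0.142), PI 2.69 (0.165) and VND7 -1.63 (0.238). Of the 4 phloem markers 1 had a fold change above 0 there (median -0.21). Between the lines the xylem regulator VND7 was higher in the stabilised line (2.73, edgeR's adjusted p = 0.0485), while GAPB gave 0.40 (0.145), APL -0.22 (0.163) and PI -1.98 (0.173). Few reads underlie VND7, with 1, 5 and 5 in the knockout-labelled and 16, 20 and 25 in the stabilised libraries. The values of PI rest on knockout-labelled 3, at 8.44 RPKM against 0.952 and 0.713 RPKM in the other libraries of that line, and without it they were 0.61 against the wild type and 0.096 between the lines. Whether tissue make-up had a part in the levels of the 6 genes was not tested.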

How the data were processed

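Leaf RNA from 9 libraries was measured by RNA sequencing. A Qiagen plant kit and a NEB library kit were used, per the labels' protocols. The authors deposited 1 table holding, per the file headers, counts of total, unique, intron and exon-exon reads per gene from trimmed paired reads, RPKM values per library and as group means, and other columns such as exon length, start and end; starts were found to count from 0 and are printed from 1. The submitters' processing notes name the build TAIR10, while the aligner, counter, annotation version and strand setting were not given in the sources used here. Columns were matched to samples by title, which left 0 per-sample columns without a sample.

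Total exon reads served as counts. Genes passing filterByExpr (minimum count 10, minimum total 15, minimum share 0.7) were fitted after TMM scaling by edgeR 4.0.16 in R 4.3.3 (glmQLFit and glmQLFTest), all 9 libraries in 1 fit with a mean per group and 6 residual degrees of freedom. The SE is the size of the fold change over the square root of F. Calls need a Benjamini-Hochberg adjusted p under 0.05. The fit was tested on simulated data. Intron shares and correlations used exact two-sided permutation tests. Log2 CPM had a prior count of 2. Alternatives were other scalings, no filter, unique reads, DESeq2 1.42.0, limma-voom (limma 3.58.1), only 2 groups, each library left out and a replicate block. Where an arm is left with 2 libraries, the spread is shared over all groups.

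Named genes are the 6 genes in every comparison and, from each of 9 lists, every called member (at most 4 by smallest p) or, with none called, the 1 with the smallest p; likeness names the 3 genes of highest r for each of the 6. IAA1, IAA2, IAA5 and IAA19 were named after their values were seen, as were GH3.10, JAR1 and the GH3 genes with few reads. The 6 genes and the lists were chosen with earlier results of these data known. Of 32833 identifiers, 32548 were in the reference annotation (TAIR10.1), 32520 with the same start and end. Coding sequences were aligned with Biopython 1.88. Python 3.11.15, pandas 2.3.3, scipy 1.17.1 and matplotlib 3.10.9 were used.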

Additional observations from a re-analysis of the deposited data

How the results depend on the processing

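Over 14 alternatives for each of the 18 fold changes of the 6 genes, 232 of 252 values kept their direction and side of the threshold, 6 fell below it, 1 rose past it and 13 changed sign. All 6 that fell below it were of GH3.5 in the stabilised line against the wild type, the only call. That call was kept in 8 of 14 alternatives. The other fold changes began uncalled, so for them keeping the side of the threshold says little. Where no cause is named, the cause was not tested. The number of the 6 genes called in the knockout-labelled line against the wild type went from 0 to 1 with DESeq2 (GH3.5, 0.54, adjusted p = 0.0427). In the stabilised line against the wild type it went from 1 to 0 with library totals alone (GH3.5 0.61, edgeR's adjusted p = 0.0807) and with only the 2 groups compared (0.68, 0.0822, fewer libraries), and ranged from 0 to 1 with each library left out. With each library left out in turn, GH3.2 ranged from -3.75 to 0.89 in the knockout-labelled and from -3.44 to 1.22 in the stabilised line against the wild type, above 0 only without wild type 1, and GH3.6 from -0.0097 (without knockout-labelled 2) to 0.85 in the knockout-labelled line. Between the lines GH3.2 ranged from -0.058 to 0.62, GH3.3 from -0.58 to 0.042, GH3.6 from -0.36 to 0.57 and GH3.17 from -0.16 to 0.59, and library totals turned GH3.5 to -0.058 and GH3.6 to -0.078. Library totals moved the median of all genes to 0.12 in the knockout-labelled line against the wild type and to -0.19 between the lines, and relative to it GH3.5 gave 0.55 and 0.13. Of calls over all genes, 68.5% were higher with library totals against 55.9% with TMM in the first of these, and 42.0% against 69.9% in the second. Replicate numbers were not taken to pair the libraries. Correlations of deviations from the group means ran from -0.439 to 0.516 between libraries of the same number. They cannot decide whether the numbers pair libraries, because libraries of unlike number were not compared. All libraries numbered 2 had lower intron shares. With the replicate block the 6 genes had 0, 1 and 0 calls as without it, GH3.2 between the lines gave -0.040, and genes called in the knockout-labelled line against the wild type went from 322 to 134. Of 24 calls of listed genes named in the report it ended 8, namely GH3.14, IAA3, RCA and YUC9 in the stabilised line against the wild type and TAA1, YUC9, IAA13 and VND7 between the lines (adjusted p = 0.0540 to 0.101), and it added SWEET11 in the knockout-labelled line (0.0472). Genes called went from 322, 1721 and 1351 to 1778, 3418 and 3641 with DESeq2, and from 1721 and 1351 to 615 and 703 with only the groups compared. Leaving out 1 library gave 10 (without knockout-labelled 2) to 144, 584 (without stabilised 2) to 3786 (without stabilised 1) and 3 (without knockout-labelled 1) to 5241 (without stabilised 1). Depth limits GH3.2 and GH3.17, with 6 and 10 reads in wild type 3.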
